A study of Homo sapiens with 12 samples.

Results

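The inflammasome genes described here are 7 of the 24359 gene symbols in the expression table of PC-3M cells: NLRP3, NLRP1, PYCARD, CASP1, CASP4, IL18 and GSDMD. They were chosen by symbol, each with the transcript row of highest mean signal, and the set was picked because NLRP3 messenger RNA was lost in PC-3M cells treated with KMT9a siRNA. The values of that comparison are therefore given for these genes as a description, without a test. N6AMT1 is the gene of KMT9a, which forms an active methyltransferase with TRMT112, and the series title names its control of metabolism and proliferation in castration-resistant prostate cancer cells as the subject.

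RNA was sequenced from PC-3M cells, a prostate cancer line derived from PC-3, with KMT9a siRNA (3 libraries) or control siRNA (3 libraries), all at passage 11. RNA was also sequenced from MCF10A cells, a non-transformed breast epithelial line, with KMT9a siRNA (3 libraries) or control siRNA (3 libraries), all at passage 13. Each line is 1 cell line, and the labels give neither the siRNA sequences nor the time after transfection. The replicates are labelled as biological, but nothing says that they came from separate cultures, and p-values then speak only to the spread among these libraries, which may be technical.

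An inflammasome is a protein platform that forms when a sensor of the NLR family, such as NLRP3 or NLRP1, detects infection or cell damage. The sensor recruits the adaptor ASC, encoded by PYCARD, which binds the protease caspase-1. Caspase-1 matures the cytokines interleukin-1 beta and interleukin-18 and cuts gasdermin D, whose N-terminal fragment opens pores in the plasma membrane. Caspase-4 cuts gasdermin D on a separate, noncanonical route after binding bacterial lipopolysaccharide in the cytosol. The complete machinery is best known from monocytes and macrophages, whereas many epithelial cells make interleukin-18, caspase-4 and gasdermin D.

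Depth in genes was 40236221 to 53401602 read ends per library in PC-3M and 181064 to 255642 in MCF10A. N6AMT1 stood at 3.00, 2.58 and 2.82 CPM in the KMT9a siRNA libraries of PC-3M, against 11.4, 12.0 and 11.0 CPM with control siRNA, so the targeted gene was low in the libraries labelled as knockdown. In MCF10A it was at 0 in all 6 libraries, and the knockdown could not be checked. Among the PC-3M knockdown libraries, replicate 2 stood apart, with a chi-square over degrees of freedom of 22.0 and 26.7 against replicates 1 and 3, which differed from each other by 4.74. Without it the log2 differences were -4.01 for NLRP3, -0.56 for IL18 and 0.07 for CASP4. Replicate 2 of the MCF10A knockdown stood apart too (29.2 and 41.3, against 4.98 between the other 2). MCF10A control replicates 1 and 2 differed least of all replicate pairs (1.58) and were also counted as 1 sample. PC-3M expressed the epithelial keratin genes KRT8 (335 CPM with KMT9a siRNA and 147 CPM with control siRNA) and KRT18 (546 CPM with KMT9a siRNA and 589 CPM with control siRNA). Of 7 prostate and epithelial markers 5 were tested, of which 2 were higher (KRT8 and CDH1) and 3 lower (HOXB13, EPCAM and KRT18) by limma. Over all tested genes of PC-3M 37.2% were higher and 37.3% lower. HOXB13, a prostate lineage factor gene, stood at 126 CPM with KMT9a siRNA and 270 CPM with control siRNA, and EPCAM at 23.2 CPM with KMT9a siRNA and 41.0 CPM with control siRNA. KLK3, the prostate-specific antigen gene, had 0 read ends over the KMT9a siRNA libraries and 8 over the control siRNA libraries.

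NLRP3 had the deepest loss of the 7 genes. It encodes the sensor that responds to potassium efflux and many other danger signals, and lies on hg19 chromosome 1, 247581351 to 247612406, plus strand, the span of the transcript row used here. NLRP3 stood at 1.58, 1.45 and 1.46 CPM in the 3 KMT9a siRNA libraries of PC-3M, against 26.4, 23.9 and 24.9 CPM in the 3 control siRNA libraries. CPM here are read ends scaled to the depth of each library, with depths adjusted by the trimmed mean of M values (TMM). All 3 knockdown libraries lay far below all 3 control libraries, and neither group held a library apart from the other 2. These levels rest on 64, 65 and 56 read ends with KMT9a siRNA and on 1495, 1296 and 1411 with control siRNA. The mean was 1.495 ± 0.0709 CPM with KMT9a siRNA and 25.1 ± 1.24 CPM with control siRNA (SD, n = 3 each), which leaves 5.96% of the control level. On the log2 scale, with a pseudocount of 1 on the deposited scale, the difference was -4.03 (SE 0.101), a 16.4-fold lower level. The authors' deposited table gives -4.09 for the same transcript row. Of 14958 tested genes, 18 had a more negative log2 fold change. Because these are bulk libraries, fewer cells with NLRP3 messenger RNA and less of it per cell cannot be told apart.

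The loss was seen in each NLRP3 transcript row of the table. There were 6 such rows of 3828 to 4440 bases, with 2 different start positions, and their log2 differences ran from -4.05 to -3.98. Reads in exons common to several forms are counted in each of these rows, so the rows are not independent measurements. No other gene row overlaps the span of NLRP3.

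PYCARD and CASP1, the adaptor and the protease that NLRP3 acts through, were close to absent in PC-3M with either siRNA. PYCARD (hg19 chromosome 16, 31212807 to 31214097, minus strand) had 4, 2 and 4 read ends in the KMT9a siRNA libraries, against 0, 2 and 1 in the control siRNA libraries. These correspond to 0.0987, 0.0444 and 0.104 CPM with KMT9a siRNA and to 0, 0.0369 and 0.0179 CPM with control siRNA. The knockdown values lay above the control values, but every library was below the limit that a count of 0 allows, 3 read pairs or 0.112 to 0.149 CPM in these libraries, counting error only. CASP1 (hg19 chromosome 11, 104896237 to 104972158, minus strand) had 0, 2 and 0 read ends with KMT9a siRNA and 0, 2 and 0 with control siRNA. No CASP1 library reached that limit either, and the groups overlapped. The span of CASP1 also holds CARD16 and CARD17, near-copies of its N-terminal CARD domain, so that even these few reads are uncertain.

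NLRP1, a sensor that is activated when the proteases DPP8 and DPP9 no longer restrain it, was near 0 as well. It lies on hg19 chromosome 17, 5417438 to 5487832, minus strand. NLRP1 had 1, 8 and 2 read ends in the KMT9a siRNA libraries, against 0, 2 and 2 in the control siRNA libraries, and the groups overlapped. The 8 read ends, 0.178 CPM, fell in KMT9a siRNA replicate 2, the library that stood apart, and it was the only library of PC-3M with NLRP1 above the limit. No fold change is given for PYCARD, CASP1 and NLRP1. These 3 genes did not pass the filter on low values, and the other 4 did.

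The start regions of NLRP3 and PYCARD are shown because NLRP3 carried the largest difference while its adaptor gene was nearly silent in the same libraries. Promoter sequences of 300 bases, 250 before and 50 after the gene start, were taken from RefSeq on GRCh38.p14, where 3 of the 7 genes had an entry. NLRP3 has 2 annotated starts in the hg19 table, and since the builds differ, which of them the window covers was not determined. Each is printed 5′ to 3′ on the strand of its gene, with every CG dinucleotide in capitals. The NLRP3 sequence is chr1:247415923-247416222, plus strand, and the PYCARD sequence is chr16:31202711-31203010, minus strand.
NLRP3: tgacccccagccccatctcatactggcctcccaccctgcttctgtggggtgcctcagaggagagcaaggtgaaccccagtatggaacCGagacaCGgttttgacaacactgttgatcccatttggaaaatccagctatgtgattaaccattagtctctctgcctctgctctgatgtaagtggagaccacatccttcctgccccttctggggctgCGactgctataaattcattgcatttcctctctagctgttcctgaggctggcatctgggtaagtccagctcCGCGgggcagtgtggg
PYCARD: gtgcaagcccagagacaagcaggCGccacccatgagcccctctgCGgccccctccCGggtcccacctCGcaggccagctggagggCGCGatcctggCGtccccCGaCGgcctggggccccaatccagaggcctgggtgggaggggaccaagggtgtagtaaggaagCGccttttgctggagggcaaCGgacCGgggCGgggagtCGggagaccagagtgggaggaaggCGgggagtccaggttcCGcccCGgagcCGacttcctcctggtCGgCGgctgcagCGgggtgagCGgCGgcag
The NLRP3 window holds 5 CG dinucleotides and the PYCARD window 23, against a median of 14 over 35116 promoters of the same length. At least 5 were found in 70.4% of these promoters and at least 23 in 35.8%. CG reads the same on both strands, so 1 count covers both. The CASP4 window holds 3. The counts describe sequence, and the files used here hold no measurement of DNA methylation or of a histone mark at these sites.

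GSDMD, the pore-forming substrate of caspase-1 and caspase-4, was higher in the knockdown. It lies on hg19 chromosome 8, 144635557 to 144645231, plus strand. GSDMD stood at 42.3, 53.7 and 40.3 CPM in the KMT9a siRNA libraries, against 21.4, 22.1 and 23.7 CPM in the control siRNA libraries. The groups did not overlap, and KMT9a siRNA replicate 2 was the highest library. The mean was 45.4 ± 7.21 CPM with KMT9a siRNA and 22.4 ± 1.23 CPM with control siRNA (SD, n = 3 each). The log2 difference was 1.01 (SE 0.0977), and it was 0.89 without KMT9a siRNA replicate 2. Its 2 transcript rows gave log2 differences of 1.01 each.

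IL18, which encodes the cytokine precursor that caspase-1 matures, was lower in the knockdown and remained the most abundant of the 7 per length of transcript. It lies on hg19 chromosome 11, 112013974 to 112034840, minus strand. IL18 stood at 64.2, 59.8 and 66.4 CPM in the KMT9a siRNA libraries, against 95.2, 100.1 and 94.1 CPM in the control siRNA libraries. The groups did not overlap, and within each group the values lay close together. The log2 difference was -0.61 (SE 0.0577), which leaves 65.8% of the control level.

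CASP4, the lipopolysaccharide-binding caspase, differed least among the measured genes. It lies on hg19 chromosome 11, 104813594 to 104839325, minus strand. CASP4 stood at 51.6, 57.4 and 54.2 CPM in the KMT9a siRNA libraries, against 51.5, 49.8 and 49.7 CPM in the control siRNA libraries. The lowest knockdown library and the highest control library were nearly equal. The log2 difference was 0.11 (SE 0.0595) with TMM scaling and -0.06 with scaling by library totals, so its sign depends on the scaling. With library totals the median over all genes was -0.17.

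**Figure D1:**
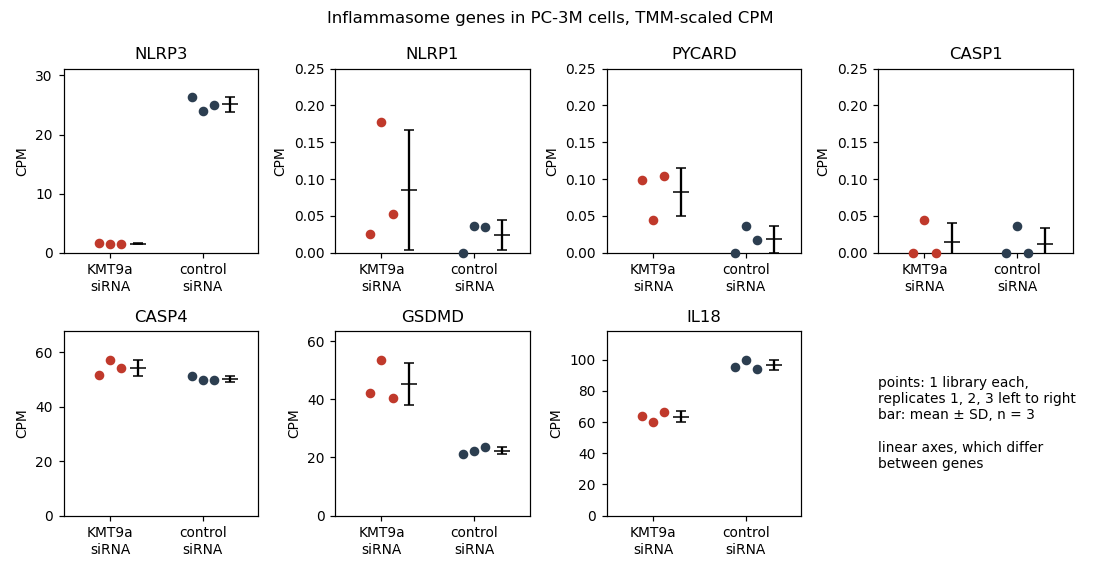
Each panel plots CPM of 1 inflammasome gene in PC-3M cells, with the 3 KMT9a siRNA libraries in red on the left, the 3 control siRNA libraries in blue on the right and the mean ± SD beside them, on linear axes that differ between genes. NLRP3 lies at 1.45 to 1.58 CPM with KMT9a siRNA and at 23.9 to 26.4 CPM with control siRNA, GSDMD is higher and IL18 lower with KMT9a siRNA, and NLRP1, PYCARD and CASP1 stay at or below 0.178 CPM.

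Of the 4 genes that passed the filter, 3 were past an adjusted p of 0.05 in the limma fit over all genes, 1 higher (GSDMD) and 2 lower (NLRP3 and IL18). In the same comparison 74.5% of tested genes were past it, 37.2% higher and 37.3% lower. The groups did not overlap for 4 of 4, where 77.0% of tested genes did not overlap. Since the comparison chose the genes, these counts are descriptive.

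Levels were compared between the genes per kilobase of transcript. With control siRNA the order was IL18 (84.9 ± 2.83 CPM per kilobase), CASP4 (38.7 ± 0.784), GSDMD (9.79 ± 0.536) and NLRP3 (5.65 ± 0.279; SD, n = 3), and no library of one gene overlapped those of its neighbour in this order. With KMT9a siRNA the order of these 4 was the same, at 55.9 ± 2.96, 41.8 ± 2.23, 19.9 ± 3.15 and 0.337 ± 0.0160 CPM per kilobase (SD, n = 3), again without overlap between neighbours. PYCARD, NLRP1 and CASP1 came last in both groups, at up to 0.136 CPM per kilobase in any library. With control siRNA these 3 overlapped one another. Among the tested genes, 45.9% lay below NLRP3 in length-scaled level with control siRNA, 57.9% below GSDMD, 85.5% below CASP4 and 93.9% below IL18.

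The sensor and the pore former were also compared within each library. Per length, GSDMD stood at 59.2 ± 11.1 times the level of NLRP3 with KMT9a siRNA and at 1.74 ± 0.147 times with control siRNA (SD, n = 3 each). IL18 stood at 166 ± 9.89 times the level of NLRP3 with KMT9a siRNA and at 15.1 ± 1.16 times with control siRNA. The ratio of CASP4 to GSDMD was 2.13 ± 0.243 with KMT9a siRNA and 3.96 ± 0.280 with control siRNA. These ratios within a library do not depend on the scaling between libraries.

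**Figure D2:**
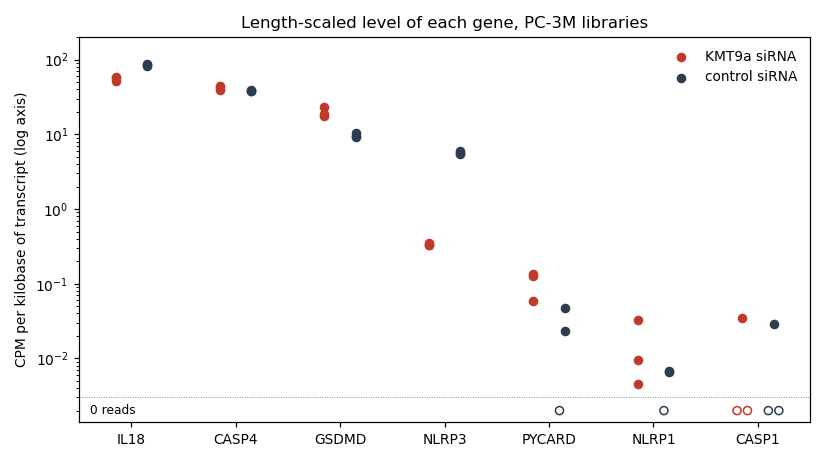
The vertical log axis gives CPM per kilobase of transcript for the 7 genes in PC-3M cells, with KMT9a siRNA libraries in red left of the control siRNA libraries in blue and libraries without reads as open circles under the dotted line. IL18, CASP4, GSDMD and NLRP3 keep their order in both groups, NLRP3 lies at 0.337 CPM per kilobase with KMT9a siRNA, and CASP1 has reads in 1 library of each group.

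The NLRP3 profile over the 6 PC-3M libraries was compared with that of every other tested gene, as the Euclidean distance between log2 values centred on each gene's mean. The nearest was MYB, a transcription factor gene, at a distance of 0.171 log2 units, with 1.89 ± 0.0970 CPM in KMT9a siRNA libraries and 33.3 ± 0.834 CPM in control siRNA libraries (SD, n = 3 each). BIRC5, the survivin gene, followed at 0.319, and RAB3A, a vesicle GTPase gene, at 0.418. RRM2, a ribonucleotide reductase subunit gene, lay at 0.504 and the olfactory receptor gene OR8G5 at 0.506. OR8G5 was the least expressed of the 5, at 0.145 CPM with KMT9a siRNA and 2.42 CPM with control siRNA, and its span overlaps OR8G1, so its reads are uncertain. These distances rest on 3 libraries in each of 2 groups.

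Other genes of the pathway were taken from 5 lists of 68 genes in all, none of them among the 7. Of these, 44 passed the filter on low values, and 8 of the other 24 were at 0 in all 6 PC-3M libraries. Among the 44, 27 rose and 9 fell with KMT9a siRNA (limma, Benjamini-Hochberg adjusted p under 0.05 over all tested genes), against 37.2% higher and 37.3% lower over all tested genes. Without KMT9a siRNA replicate 2, 30 rose and 9 fell. The filter was applied anew there, with 15223 tested genes against 14958, so these need not be the same 44 genes. The median log2 fold change of the 44 was 0.44 and that of all tested genes 0.00099. The shares of 37.2% and 37.3% over all tested genes are also the reference for the counts of each list below.

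Among the other sensors and related receptors, 5 of 14 genes could be tested, 3 rose and 0 fell by limma. NLRC4, which with NAIP recognises bacterial flagellin and secretion needles, rose to 2.20 ± 0.468 CPM with KMT9a siRNA, against 0.736 ± 0.148 CPM with control siRNA (SD, n = 3 each; log2 fold change 1.52, SE 0.226, limma adjusted p = 5.04e-05). NOD1, a receptor for bacterial peptidoglycan fragments, rose by 1.47 on the log2 scale, and the DNA sensor gene IFI16 rose by 0.40. NAIP (0.42, limma adjusted p = 0.0881) and CARD8 (-0.20, adjusted p = 0.0676), a sensor related to NLRP1, did not pass. The DNA sensor gene AIM2 and the sensor genes NLRP6 and NLRP7 were at 0 in all 6 libraries. The sign of NLRP3 was thus opposite to that of NLRC4, NOD1 and IFI16.

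Of the genes that prime or trigger NLRP3, 8 of 16 tested were higher and 6 lower, against 37.2% higher and 37.3% lower over all tested genes. TLR2, the receptor for bacterial lipoproteins, rose to 30.2 ± 2.02 CPM with KMT9a siRNA, against 2.52 ± 0.265 CPM with control siRNA (SD, n = 3 each; log2 fold change 3.57, SE 0.104, limma adjusted p = 2.26e-11). TLR4, the lipopolysaccharide receptor, rose by 2.48 on the log2 scale to 6.67 CPM, against 1.16 CPM with control siRNA. Noncoding transcript rows without a gene symbol overlap TLR4 on the same strand. Whether they are forms of TLR4 itself was not determined. The potassium channel gene KCNK6 rose by 1.64. NEK7, the kinase that binds NLRP3 and is needed for its assembly, fell to 8.53 ± 0.621 CPM with KMT9a siRNA, against 24.1 ± 0.724 CPM with control siRNA (SD, n = 3 each; log2 fold change -1.49, SE 0.0819, limma adjusted p = 4.73e-09). BRCC3, which removes ubiquitin from NLRP3, fell by 0.59, and HDAC6, which carries NLRP3 along microtubules, fell by 0.53. P2RX7, the ATP-gated channel gene upstream of NLRP3 (log2 fold change -0.57, limma adjusted p = 0.124), and the pannexin gene PANX1 (0.09, adjusted p = 0.222) did not pass.

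Inhibitor genes mostly rose, 9 of 11 tested, and 1 fell. IL1RN, the interleukin-1 receptor antagonist gene, is counted among the 9, with 19, 20 and 19 read ends in KMT9a siRNA libraries and 2, 6 and 4 in control siRNA libraries. Its control libraries lay at or below the limit of 3 read pairs, it passed the filter only through the knockdown libraries, and no fold change is given. TNFAIP3, which encodes the NF-kB inhibitor A20, rose by 1.08 on the log2 scale, and SERPINB1, a serpin gene whose product restrains inflammatory caspases, rose by 0.69. FBXL2, a ubiquitin ligase subunit gene whose product targets NLRP3, fell by 0.50. TRIM31 (0.24, limma adjusted p = 0.352) did not pass. The CARD-only genes CARD16, CARD17 and CARD18 and the pyrin-only gene PYDC1 were below the filter.

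Among other caspases and lytic effectors, 1 of 5 tested genes rose and 1 fell. The gasdermin gene GSDMB rose by 0.91 on the log2 scale, next to the higher level of GSDMD. NINJ1, whose product ruptures the membrane of dying cells, fell by 1.38. It stood at 9.78 ± 1.96 CPM with KMT9a siRNA and at 25.3 ± 1.90 CPM with control siRNA (SD, n = 3 each; limma adjusted p = 4.36e-07). CASP8, GSDMC and DFNA5, the older symbol of the gasdermin E gene GSDME, did not pass, with log2 fold changes of 0.004, 0.26 and -0.19 (limma adjusted p = 0.965, 0.192 and 0.0609).

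Genes of the interleukin-1 family and its receptors rose in 6 of 7 tested cases, and 1 fell. IL1B, which encodes the other main cytokine matured by caspase-1, rose to 9.13 ± 2.21 CPM with KMT9a siRNA, against 1.59 ± 0.293 CPM with control siRNA (SD, n = 3 each; log2 fold change 2.48, SE 0.183, limma adjusted p = 7.47e-08), whereas IL18 was lower. IL18R1, a chain of the interleukin-18 receptor, rose to 1.05 CPM with KMT9a siRNA, against 0.108 CPM with control siRNA. Its control values of 0.124, 0.129 and 0.0706 CPM lay near the limit, and it passed the filter only through the knockdown libraries. IL18R1 is counted among the 6. The fitted log2 fold change of 2.89 depends on the pseudocount, being 1.99 with a pseudocount of 5 and 3.20 with 0.25. IL1A rose by 1.85 on the log2 scale to 1.01 CPM, against 0.245 CPM with control siRNA. IL33 fell by 1.14 (limma adjusted p = 0.0236) at 0.147 CPM with KMT9a siRNA and 0.381 CPM with control siRNA. Its read ends were 8, 4 and 6 with KMT9a siRNA and 15, 17 and 32 with control siRNA. KMT9a siRNA replicates 2 and 3 lay at or below the limit of 3 read pairs, and IL33 passed the filter only through the control libraries. It did not pass without KMT9a siRNA replicate 2 (log2 fold change -0.90, adjusted p = 0.0673) or without control siRNA replicate 3 (-0.85, adjusted p = 0.131).

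**Figure D3:**
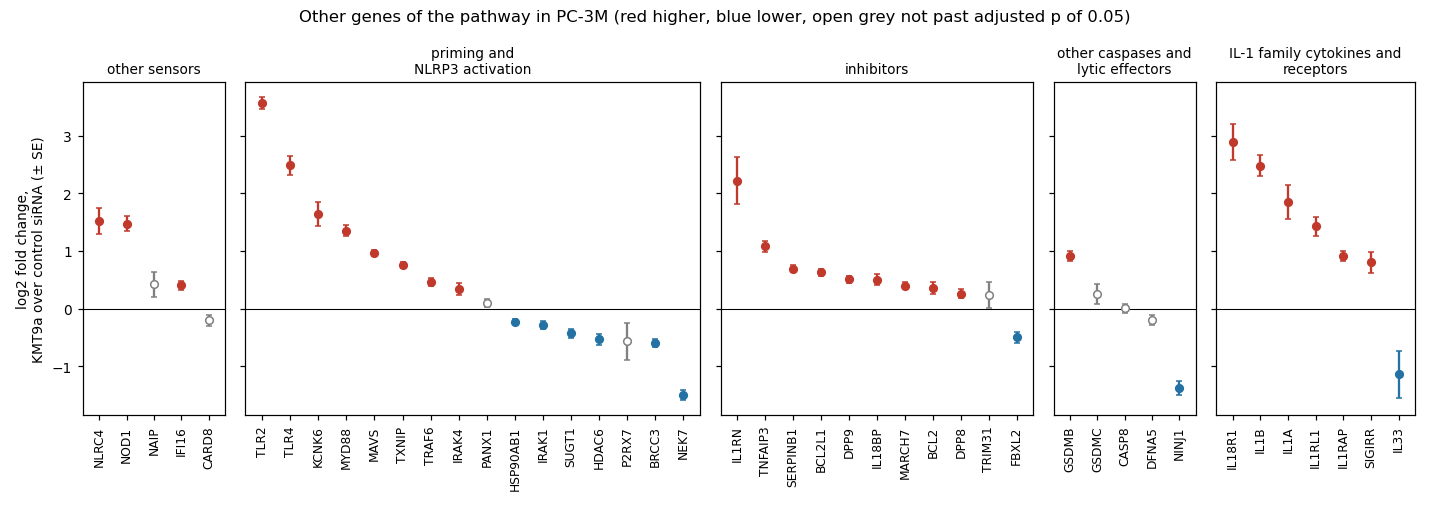
Points give the log2 fold change of KMT9a siRNA over control siRNA ± SE for the 44 tested pathway genes in PC-3M cells, in 5 panels by list and in falling order within each. Red points are the 27 genes that rose and blue points the 9 that fell past an adjusted p of 0.05, open grey points did not pass, and TLR2 is the highest point and NEK7 the lowest.

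Leukocyte marker genes were examined because NLRP3 and CASP1 are best known from myeloid cells. The summed level of 10 markers was 2.91 to 4.62 CPM in KMT9a siRNA libraries and 0.979 to 1.13 CPM in control siRNA libraries of PC-3M. Without the lysozyme gene LYZ, left out after the values were seen, the other 9 summed to 1.55, 0.578 and 0.992 CPM with KMT9a siRNA, against 1.02, 0.831 and 0.954 CPM with control siRNA, and the groups overlapped. Of 3 markers that passed the filter, LYZ rose by 3.94 on the log2 scale (limma adjusted p = 4.37e-08), CSF1R fell by 1.17 (adjusted p = 0.0182, but 0.0753 without control siRNA replicate 1 and 0.0637 without KMT9a siRNA replicate 3) and CD14 did not pass (adjusted p = 0.243). LYZ had 329 read ends with KMT9a siRNA and 22 with control siRNA, too few in controls to pass the filter without the knockdown libraries. Its log2 fold change depends on the pseudocount, being 3.06 with a pseudocount of 5 and 4.22 with 0.25. TYROBP, AIF1 and MS4A1 were at 0 in all 6 libraries. PTPRC, the pan-leukocyte gene, was at 0.323 CPM with KMT9a siRNA and 0.0540 CPM with control siRNA. The sum of basal epithelial markers moved more, mostly through the integrin gene ITGB4. Their summed level over 8 genes was 744 to 934 CPM in KMT9a siRNA libraries and 75.7 to 84.4 CPM in control siRNA libraries. By limma 4 of 5 tested members rose while 0 fell, against 37.2% higher and 37.3% lower over all tested genes. ITGB4 made up most of the sum with KMT9a siRNA, at 737 CPM, against 22.8 CPM with control siRNA (log2 fold change 5.01). The growth factor receptor gene EGFR rose by 2.28 and the basal transcription factor gene TP63 by 2.37, while CDH3 did not pass (-0.07, limma adjusted p = 0.39). TP63 had 26 read ends over the control siRNA libraries, too few to pass the filter without the knockdown libraries. The same holds for KRT6A, with 41 read ends with KMT9a siRNA and 12 with control siRNA, and its fold change is not given. KRT5, KRT14 and KRT17 were below the filter. KRT5 went the other way, with 4 read ends with KMT9a siRNA and 32 with control siRNA, KRT14 had 2 and 2 and KRT17 13 and 6. The part of these markers, or of other cells, in the values of the inflammasome and pathway genes was not tested.

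In MCF10A, where the comparison is independent of how the genes were chosen, 0 of the 7 passed the filter on low values, and so no test was possible. Over all genes, limma called 0.477% of 1049 tested genes, 0.0953% higher and 0.381% lower, a count that depends on single libraries, and the groups did not overlap for 28.2%. NLRP3, PYCARD, CASP1, CASP4 and IL18 had 0 read ends in all 3 KMT9a siRNA and all 3 control siRNA libraries. GSDMD had 2 read ends in KMT9a siRNA replicate 3 and 0 in the other 5 libraries, and NLRP1 had 1 read end in control siRNA replicate 1 and 0 in the other 5. A count of 0 in an MCF10A library allows up to 23.5 to 33.1 CPM, taken at 3 read pairs and for counting error only. This takes 2 read ends to a pair, which was not settled for MCF10A. With unpaired read ends the limits would be lower. At the share of reads that it held in PC-3M controls, IL18 would reach 9.28 to 13.1 read pairs in each MCF10A library and CASP4 4.84 to 6.84, above 3 in all 6 libraries. NLRP3 would reach 2.42 to 3.41 and GSDMD 2.16 to 3.04 read pairs, above 3 in 1 of 6 libraries each. At 2 read ends to a pair, a level like that of PC-3M was thus not reliably detectable in a single library for these genes. Summed over the 6 libraries, 16.6 read pairs of NLRP3 and 14.8 of GSDMD would be reached, against 0 read ends of NLRP3 and 2 of GSDMD in the table. The tables of the lines were scaled separately, and no level was tested between lines. The breast basal keratin gene KRT17 was present in MCF10A, at 1340 CPM with KMT9a siRNA and 744 CPM with control siRNA, while KRT5, CDH3, ITGB4 and the E-cadherin gene CDH1 were at 0 in all 6 libraries. KRT14 had 79 read ends over the KMT9a siRNA libraries and 0 over the control siRNA libraries. In the same order KRT6A had 0 and 1, TP63 5 and 6 and EGFR 2 and 0. With 2298 to 2594 genes above 0 per library, against 17067 to 17540 in PC-3M, whether the MCF10A table holds whole libraries is not given in the sources used here, and the zeros and limits above hold for the table as deposited.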

How the data were processed

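Messenger RNA was measured by sequencing in 12 libraries, grouped and numbered by their titles. Per the submitters' processing notes, STAR, HOMER and edgeR were used with the hg19 build; versions, roles, filters and strand handling are not given in the sources used here. The deposited table of each line has 38763 RefSeq transcript rows, in which the authors give a signal per transcript, scaled so that all 6 columns have nearly the same sum, and, per the file headers, the authors' log2 fold change with its p-value, raw and adjusted. Of these, only the log2 fold change was used here. Every value above 0 was a whole multiple of a step of its library (100% within 0.1 step), and even multiples were in excess, so read ends were recovered, 2 to a pair. Of the rows, 1182 had no symbol.

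Genes were kept by the edgeR 4.0.16 filter (minimum count 10, minimum total 15). The main test was limma 3.58.1 with a mean-variance trend in R 4.3.3, on log2 of the TMM-scaled signal plus a pseudocount of 1, fitted within each line over all genes, with Benjamini-Hochberg adjustment and a threshold of 0.05. The pseudocount makes fold changes of low genes too small. On recovered reads, the edgeR test called 11147 PC-3M genes and 6 MCF10A genes. The code was tested on simulated data with 200 changed genes. In PC-3M 74.5% of tested genes were called by limma, and scaling with so many changed genes was not simulated. Alternatives covered scaling, pseudocount, filter, transcript row, edgeR, DESeq2 1.42.0, the replicate number as a block and each library left out. Named genes are the 7 members, N6AMT1, up to 3 per direction and list with the largest changes past the threshold, the 5 nearest profiles and the markers; genes that complete a count were added after their values were seen. Some genes of the lists are not reported here and stayed out of the counts of the lists. The members and lists were chosen with earlier results of these data known. Paralogs and overlapping genes can share reads, and without strand antisense genes cannot be told apart. PCR copies could not be removed by molecular identifiers, so limits cover counting error only.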

Additional observations from a re-analysis of the deposited data

How the results depend on the processing

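Scaling PC-3M by library totals moved the median over all genes to -0.17 on the log2 scale and gave 4384 higher and 6821 lower genes, against 5564 and 5575 with TMM. It gave 24 higher and 12 lower pathway genes, and log2 differences of -4.20 for NLRP3, -0.78 for IL18, 0.84 for GSDMD and -0.06 for CASP4, so that relative to the median CASP4 stayed slightly higher. A pseudocount of 5 gave -3.89 for NLRP3. The other 59 of 64 values of the members under alternatives moved by less than 1 SD between replicates. Leaving out each library gave -4.08 to -4.00 for NLRP3, -0.65 to -0.56 for IL18, 0.89 to 1.08 for GSDMD and 0.07 to 0.14 for CASP4, and 10428 to 11815 called genes, 26 to 30 higher and 8 to 9 lower pathway genes. Of 532 values of 38 other genes, the tested markers included, 520 kept direction and call. The exceptions were those given for IL33 and CSF1R, KRT18, which lost its call under 7 alternatives with an unchanged sign (adjusted p 0.0524 to 0.145), and CDH3, which passed with library totals (-0.24).

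In MCF10A the count of 5 called genes was not stable: it was 1 with library totals (median -0.37), 66 without the filter and 48 with DESeq2. Control replicates 1 and 2 had the smallest chi-square over degrees of freedom of all replicate pairs, 1.58 in read ends. Counting alone would allow it only if most read ends came in pairs, which was not settled. Averaging these replicates, chosen after seeing the data, left 0 by limma and 75 at an unadjusted p under 0.05. Leaving out 1 library gave 0 to 170: 170 without KMT9a siRNA replicate 2, 8 without KMT9a siRNA replicate 3 and 0 without any of the other 4, with 75 to 121 at an unadjusted p under 0.05. With the replicate number as a block, 10949 genes were called in PC-3M and 0 by limma in MCF10A, 153 there at an unadjusted p under 0.05. Same-numbered PC-3M libraries correlated at -0.0415, -0.0206 and 0.0372 in their deviations, so the numbers were not taken as pairs. In MCF10A these were -0.0711, 0.139 and 0.157. In MCF10A 0 of the 7 genes could be tested. At 2 read ends to a pair, its depth limits what can be seen of NLRP3 and GSDMD in single libraries. IL18 and CASP4 would exceed 3 read pairs in all 6 at their PC-3M share.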
